A study of Homo sapiens with 16 samples.

Results

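TREM2, UNC13A, KANK3 and INPP5D are 4 of the 25369 genes counted in RNA-seq libraries of the human papillary thyroid carcinoma cell lines TPC1 and K1. They were selected on their measured counts under nutlin and under DMSO, near 0 or low in vehicle-treated cells and many-fold higher with nutlin, among genes that do not belong to the thyroid lineage. No numeric cut-off was part of that choice, so there are no genes just inside or just outside it. The values of nutlin against DMSO are therefore given as a description without a test. The main tests below use the libraries with GSK2830371, which are not part of that contrast. The counts of all 16 libraries were in view when the genes were chosen, so none of the tests is independent of the choice, and their p-values only set a difference against the spread between libraries. Each line was treated for 24 h with 0.2% DMSO (the vehicle), with 10 µM nutlin, with 25 µM GSK2830371, or with both drugs (the combination), and each of these 8 groups holds 2 libraries. Both lines carry wild type p53 and no group was genetically modified. The study's methods call its replicates independent in general, and the labels do not say which cultures these libraries came from.

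Nutlin blocks the binding of MDM2, the ubiquitin ligase that keeps p53 low, and so lets the transcription factor p53 accumulate. GSK2830371 inhibits the phosphatase PPM1D, which removes phosphate from p53 and from the kinases upstream of it. TREM2 encodes a lipid-sensing receptor of microglia and other macrophages that signals through the adaptor TYROBP. UNC13A encodes Munc13-1, the presynaptic protein that primes synaptic vesicles for release in neurons. KANK3 encodes a protein with ankyrin repeats of the KANK family, whose members link talin at adhesions to the cortical microtubule machinery. INPP5D encodes SHIP1, an inositol phosphatase of blood cells that turns over the lipid product of PI3K.

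The promoters are shown because p53 binds DNA directly and the genes shared the response to its stabiliser. RefSeq promoter sequences (table of GRCh38.p14) were matched for 4 of 4 genes, and each stretch of 250 bases before the start site was found once, without a mismatch, on its GRCh37 chromosome. The bases outside every annotated exon are printed 5′ to 3′ on the gene's strand, with each p53 core motif in capitals (CNNG with A or T at each N, which reads the same on both strands).
TREM2 (chr6:41130925-41131104, minus strand): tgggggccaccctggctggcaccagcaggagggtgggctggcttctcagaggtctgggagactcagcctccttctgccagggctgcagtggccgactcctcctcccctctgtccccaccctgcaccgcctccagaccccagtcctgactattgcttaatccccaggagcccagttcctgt
UNC13A (chr19:17799175-17799413, minus strand): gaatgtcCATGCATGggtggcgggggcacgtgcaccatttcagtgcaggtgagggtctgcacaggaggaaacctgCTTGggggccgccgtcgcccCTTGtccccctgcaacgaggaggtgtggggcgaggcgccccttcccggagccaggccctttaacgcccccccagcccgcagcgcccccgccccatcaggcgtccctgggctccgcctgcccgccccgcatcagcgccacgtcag
KANK3 (chr19:8408147-8408396, minus strand): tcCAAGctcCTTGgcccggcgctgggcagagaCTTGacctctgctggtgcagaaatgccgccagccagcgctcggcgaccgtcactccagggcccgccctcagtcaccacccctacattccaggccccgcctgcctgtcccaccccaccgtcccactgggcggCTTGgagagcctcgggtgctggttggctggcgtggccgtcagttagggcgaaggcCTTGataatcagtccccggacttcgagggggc
The INPP5D stretch (chr2:233924802-233925051, plus strand) lies inside an annotated first exon and was searched but is not printed. Over the whole 250 bases, the core motif occurred 4 times at TREM2, 4 times at UNC13A, 5 times at KANK3 and 3 times at INPP5D, and 92.8% of the 35116 promoters in the table hold at least 1. The p53 decamer motif had 0 matches in all 4 stretches, while 5.57% of promoters hold 1. No match says only that these letters are not in these windows.

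Within 5000 bp on either side of the start sites, 2 joined decamers with no spacer and with up to 2 mismatches were found once, at TREM2. That 20-base stretch lay 2148 bp downstream of the start, in an intron on the minus strand, and its cores are in capitals.
TREM2 intronic site (chr6:41128696-41128715, minus strand): gaaCTAGcctggcCTTGgcc
Such a stretch occurred near 7.57% of 17731 protein-coding genes at up to 2 mismatches, so the match is common, and it describes letters rather than binding. With up to 1 mismatch the share was 1.09%, and no stretch near the 4 genes met it.

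The libraries held 30789887 to 76648552 counted reads in TPC1 and 28888686 to 37161241 in K1. A level is given below in CPM, the count divided by the library's total and multiplied by 1000000. The replicates of a group differed by more than counting noise in all 8 groups, with a chi-square per degree of freedom of 11.6 to 48.3 in TPC1 and 4.96 to 8.16 in K1. CDKN1A, the p53-induced cell cycle inhibitor, followed the nutlin label, with 139 ± 15.2 CPM under DMSO and 6629 ± 84.8 under nutlin in TPC1 and 114 ± 5.17 and 1012 ± 48.4 in K1 (SD, n = 2 each). Thyroid identity was partial. The transcription factors PAX8 (280 to 451 CPM in TPC1, 749 to 841 in K1) and FOXE1 (22.0 to 27.0 and 28.8 to 38.1) were present in every library, the thyrotropin receptor TSHR had 0 counts in all 16, and NKX2-1 had 0 in the 8 TPC1 libraries.

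TREM2 (ENSG00000095970) lies on chr6:41126244-41130924 of GRCh37, on the minus strand, with 5 exons in its canonical transcript. In TPC1 its counts were 1 and 0 under DMSO, 329 and 694 under nutlin, 0 and 0 under GSK2830371, and 666 and 1549 under the combination, with the library numbered 1 first in each pair. Only the libraries with nutlin held more than a single read. In bulk libraries, a change in the number of cells that hold a transcript and a change in its amount per cell cannot be told apart. The mean level was 0.0136 ± 0.0192 CPM under DMSO, 10.7 ± 0.0193 under nutlin and 21.4 ± 4.66 under the combination (SD, n = 2). In K1 the counts were 0 and 0, 13 and 13, 2 and 3, and 47 and 51 in the same order of treatments. The K1 means were 0.423 ± 0.0382 CPM under nutlin, 0.0811 ± 0.0256 under GSK2830371 and 1.53 ± 0.0757 under the combination. The K1 libraries with nutlin thus stood above those without it, at a level more than 10 times below TPC1.

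UNC13A (ENSG00000130477) lies on chr19:17712145-17799174, on the minus strand, with 44 exons. In TPC1 its counts were 7 and 9 under DMSO, 3107 and 5102 under nutlin, 6 and 15 under GSK2830371, and 6070 and 8370 under the combination. The means were 0.157 ± 0.0463 CPM, 89.6 ± 15.9, 0.193 ± 0.00403 and 149 ± 22.2. With nutlin, UNC13A was the most abundant of the 4 transcripts per read in TPC1. In K1 the counts were 163 and 131, 145 and 203, 161 and 184, and 268 and 284, and the means 4.08 ± 0.784 CPM, 5.60 ± 0.823, 5.58 ± 0.713 and 8.61 ± 0.282. The ranges under nutlin and GSK2830371 alone overlapped in K1, and nutlin over DMSO was 1.39 there, pooled over the libraries of a group. The many-fold rise by which the gene was picked was thus seen in TPC1, while K1 vehicle cells already held 27.8 times the TPC1 level.

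KANK3 (ENSG00000186994) lies on chr19:8387468-8408146, on the minus strand, with 11 exons. In TPC1 its counts were 4 and 3 under DMSO, 519 and 1099 under nutlin, 4 and 17 under GSK2830371, and 929 and 1614 under the combination. The means were 0.0749 ± 0.0474 CPM, 16.9 ± 0.0153, 0.174 ± 0.0673 and 25.4 ± 0.345. In K1 the counts were 1 and 2, 57 and 52, 2 and 2, and 74 and 87, and the means 0.0411 ± 0.018 CPM, 1.78 ± 0.275, 0.0646 ± 0.00218 and 2.51 ± 0.266. In both lines the libraries with nutlin lay above all libraries without it, and those of the combination above those of nutlin alone. RPS28, a ribosomal protein gene, overlaps KANK3 on the opposite strand. In TPC1 it stood at 440 ± 7.13 CPM under DMSO, where KANK3 was near 0, and at 598 ± 9.82 under nutlin. It was at 414 ± 6.63 under GSK2830371 and 645 ± 4.58 under the combination, so it was higher with nutlin too. In K1 the means were 350, 365, 351 and 376 CPM in the same order of treatments. The part of RPS28 reads in the KANK3 counts was not tested. Reads were counted by strand.

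INPP5D (ENSG00000168918) lies on chr2:233924677-234116549, on the plus strand, with 26 exons. In TPC1 its counts were 24 and 21 under DMSO, 213 and 460 under nutlin, 3 and 15 under GSK2830371, and 427 and 596 under the combination. The means were 0.470 ± 0.255 CPM, 6.99 ± 0.104, 0.145 ± 0.0712 and 10.5 ± 1.48. In K1 the counts were 14 and 19, 216 and 238, 16 and 8, and 239 and 252, and the means 0.455 ± 0.0801 CPM, 7.36 ± 0.161, 0.384 ± 0.17 and 7.66 ± 0.224. INPP5D was the member whose levels were closest between the lines, with ranges under DMSO that overlapped and a ratio of K1 to TPC1 of 1.05 under nutlin.

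**Figure D1:**
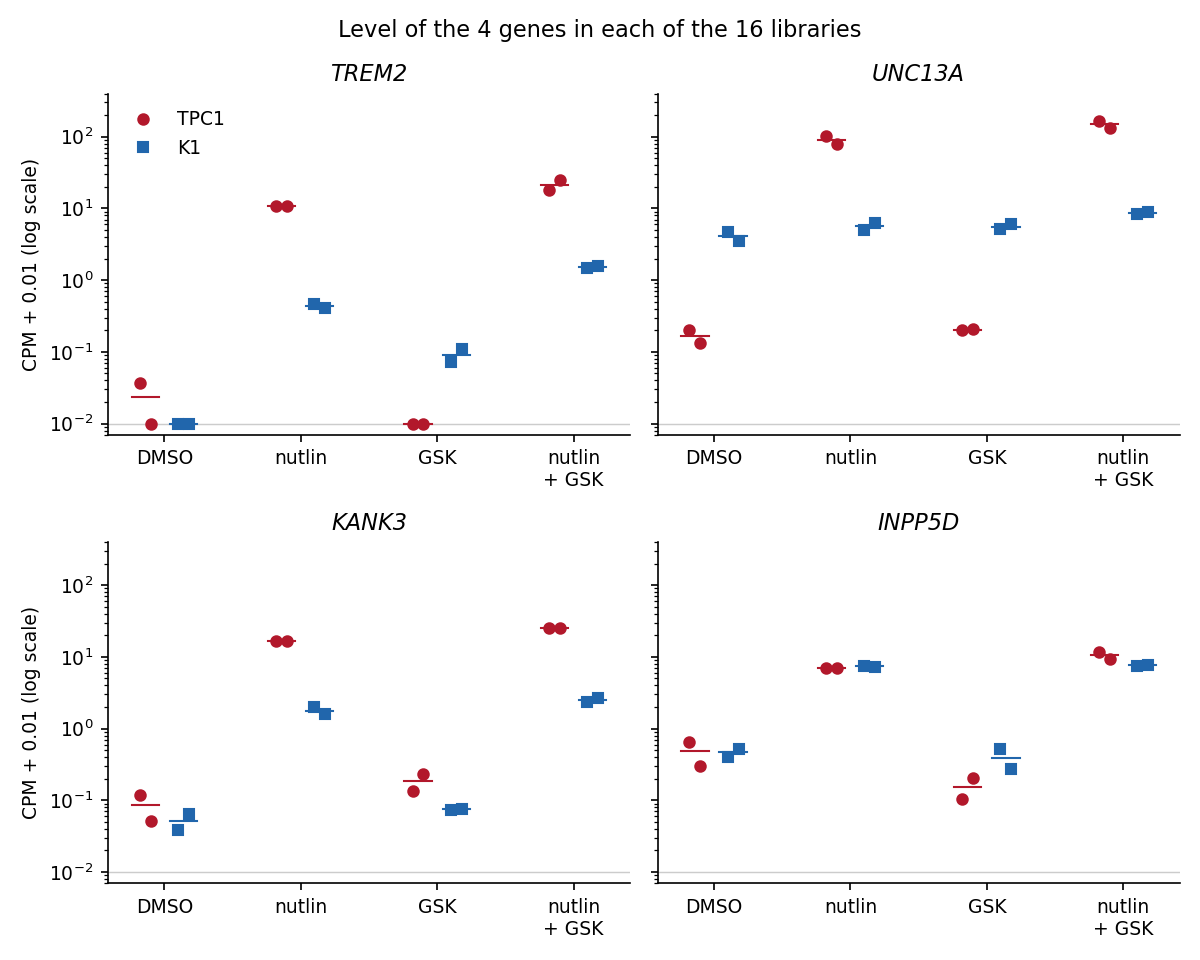
Level of TREM2, UNC13A, KANK3 and INPP5D in each library, as CPM + 0.01 on a log axis, by treatment (GSK stands for GSK2830371); circles are TPC1 and squares K1, short bars are means of 2 libraries, and the grey line marks 0 counts. The libraries with nutlin stand above those without it in both lines for TREM2, KANK3 and INPP5D, and for UNC13A in TPC1, where the means were 0.157 CPM under DMSO and 89.6 under nutlin.

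As a description of the contrast that chose the genes, nutlin over DMSO in TPC1, pooled over both libraries, was 1166 for TREM2 (95% counting interval 209 to 46115, resting on 1 vehicle read), 585 for UNC13A (360 to 1024), 264 for KANK3 (128 to 657) and 17.1 for INPP5D (12.6 to 23.6). In K1 it was at least 10.2 for TREM2, taken against the 3 counts that a pooled count of 0 allows, 42.6 for KANK3 (14.2 to 210, on 3 vehicle reads), 16.1 for INPP5D (11.3 to 23.7) and 1.39 for UNC13A (1.18 to 1.63). These exact intervals cover counting error only. A fold given as at least a value, here and below, leaves out the counting error of the group that held reads. Higher calls made up 17.5% of genes tested in this contrast in TPC1 and 3.84% in K1, and nothing is read from that.

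The nutlin effect was tested in the libraries that held GSK2830371, the combination against GSK2830371 alone. TREM2 in both lines and KANK3 in K1 passed the filter on low counts only through libraries with nutlin. Being among the genes tested already required a high value there, so their values are given without a p. A gene was called at an adjusted p under 0.05 and a fold above 1.5. In TPC1, where 19.5% of 15273 genes were called higher, the log2 fold change was 9.66 ± 0.236 for UNC13A (SE, edgeR quasi-likelihood test, Benjamini-Hochberg adjusted p = 6.02e-09), 7.13 ± 0.191 for KANK3 (adjusted p = 7.29e-09) and 6.07 ± 0.322 for INPP5D (adjusted p = 3.94e-07). TREM2 had 2215 counts against 0 and was at least 801-fold higher, against a floor of 3 counts over the GSK2830371 group. By fitted fold change UNC13A, KANK3 and INPP5D held ranks 10, 57 and 104, although the fitted values of genes with 0 counts in a group depend on the prior count.

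In K1, where 6.3% of 15900 genes were called higher, INPP5D rose by a log2 fold change of 4.25 ± 0.214 (adjusted p = 6.12e-09). KANK3 had 5.16 ± 0.39 and TREM2 4.14 ± 0.432. UNC13A rose by a log2 fold change of 0.59 ± 0.149 (adjusted p = 0.00641), which is a fold of 1.503 at the edge of the rule, and its call was lost without the GSK2830371 library numbered 1 (log2 0.46) or the combination library numbered 2 (0.56).

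**Figure D2:**
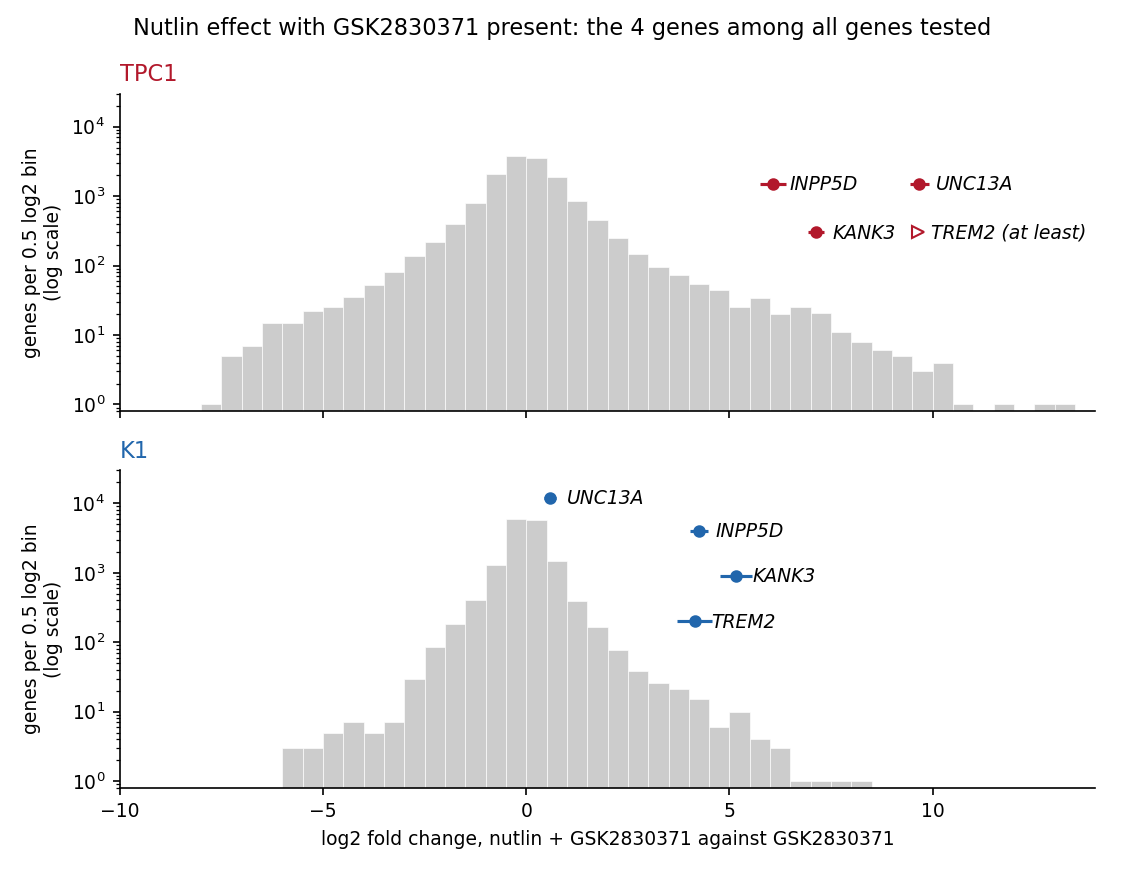
Distribution of log2 fold changes of the combination against GSK2830371 over all genes tested in TPC1 (upper) and K1 (lower), as genes per bin on a log axis, with the 4 genes placed at their estimate and SE on the x axis (their height has no meaning). The open triangle is the 801-fold of TREM2 in TPC1, taken against a floor of 3 counts. In K1, UNC13A at 0.59 sits beside the bulk of genes, while the other 3 lie between 4.14 and 5.16.

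What GSK2830371 added to nutlin was taken from the combination against nutlin alone. The nutlin libraries took part in choosing the genes, so these tests are not independent of the choice. TREM2 in both lines and KANK3 in K1 passed the filter only through libraries with nutlin, which both groups compared here are. In TPC1, where 6.46% of genes were called higher, TREM2 rose by 1.03 ± 0.176 (log2, adjusted p = 0.00435 by edgeR), UNC13A by 0.75 ± 0.133 (adjusted p = 0.00389) and KANK3 by 0.61 ± 0.113 (adjusted p = 0.00464), while INPP5D had 0.60 ± 0.202 (adjusted p = 0.0564) and was not called. UNC13A fell below the fold of the rule, at a log2 of 0.58, without the nutlin library numbered 3. INPP5D was called in 6 of 17 alternatives, among them both that left out a DMSO library. In K1, where 1.16% of genes were called higher, TREM2 rose by 1.81 ± 0.307 (adjusted p = 0.00274). UNC13A had 0.57 ± 0.149 (adjusted p = 0.0245, a fold of 1.485 and so not called) and was called without the nutlin library numbered 2 (0.75) and with library size alone as the scaling (0.62). KANK3 had 0.46 ± 0.203 (adjusted p = 0.169). INPP5D had 0.01 ± 0.128 (adjusted p = 0.964), and the 95% interval ran from -0.24 to 0.27. INPP5D in K1 is thus the case in which a further increase above 1.5-fold lay outside the interval.

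**Figure D3:**
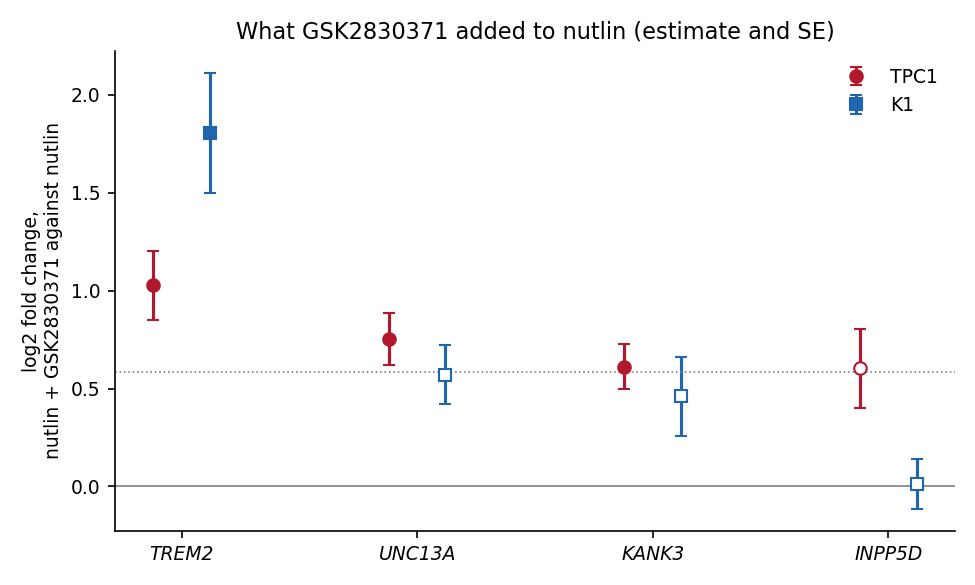
Log2 fold change of the combination against nutlin alone for each gene, with SE, in TPC1 (circles) and K1 (squares); filled symbols passed the rule, open symbols did not, and the dotted line marks 1.5-fold. TREM2 is called in both lines (1.03 and 1.81), and INPP5D in K1 sits at 0.01.

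GSK2830371 alone was compared with DMSO, whose libraries also took part in choosing the genes. None of the 4 genes was called by edgeR in either line, and INPP5D in TPC1, KANK3 in TPC1, TREM2 in K1 and UNC13A in K1 had an unadjusted p under 0.05. Calls in either direction made up 1.4% of genes in TPC1 and 2.23% in K1. In TPC1, INPP5D had -1.40 ± 0.473 (adjusted p = 0.139) with 18 counts against 45, and it was called lower without the filter and with DESeq2 (-1.40 and -1.45). It had -0.86 without the DMSO library numbered 1 and -2.18 without the GSK2830371 library numbered 3. KANK3 had 1.498 ± 0.474 (adjusted p = 0.119) with 21 counts against 7, 0.78 without the DMSO library numbered 3 and 2.11 without that numbered 1. UNC13A had 0.35 ± 0.505 (adjusted p = 0.744), with an interval of -0.65 to 1.34. TREM2 had 0 counts against 1, too few for a fold. In K1, TREM2 had 5 counts against 0 (adjusted p = 0.0527), and it was called with edgeR's own filter. The ratio to a floor of 3 counts was 1.95, which leaves out the counting error of the 5 reads and is not a lower bound. UNC13A had 0.46 ± 0.162 (adjusted p = 0.0642), and was called without the DMSO library numbered 1 (0.67). KANK3 had 4 counts against 3. INPP5D had -0.23 ± 0.36 (adjusted p = 0.736), with an interval of -0.93 to 0.48. Those intervals hold the changes that these counts leave possible, and they are not a limit of detection.

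The lines were compared in the groups with GSK2830371. The nutlin effect with GSK2830371 present was tested for a difference between K1 and TPC1 in a fit of all 16 libraries in which 12.7% of 16664 genes were called lower. The difference was -9.09 ± 0.303 on the log2 scale for UNC13A (adjusted p = 1.08e-11 by edgeR). INPP5D had -1.83 ± 0.522 (adjusted p = 0.0112), and its call was lost without the K1 GSK2830371 library numbered 1 (-1.28). Its GSK2830371 libraries held 3 and 15 reads in TPC1 and 16 and 8 in K1. As a description, its difference for nutlin against DMSO was -0.09 ± 0.414. TREM2 had at least 801-fold in TPC1 beside 18.9-fold in K1 (95% counting interval 7.85 to 59.7). It entered that test only through libraries with nutlin, so no call is read from it. No fold is given for the difference because of the group at 0. KANK3 had -1.97 ± 0.787 (adjusted p = 0.0886) and was not called, except with DESeq2 (-1.93).

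Under the combination itself, K1 stood below TPC1 by 4.22 ± 0.149 for UNC13A (adjusted p = 2.61e-13), by 3.93 ± 0.195 for TREM2 (adjusted p = 1.36e-10) and by 3.46 ± 0.136 for KANK3 (adjusted p = 9.6e-13), all on the log2 scale and by edgeR, where 24.9% of genes were called lower. TREM2 passed the filter only through libraries with nutlin in both lines. INPP5D had a difference of -0.57 ± 0.167 (adjusted p = 0.00634), short of 1.5-fold. Under GSK2830371 alone, UNC13A was higher in K1 by 4.87 ± 0.286 (adjusted p = 2.05e-10), where 45.3% of genes were called in either direction. The order of the lines for UNC13A thus turned between GSK2830371 alone and the combination. The other differences under GSK2830371 alone rested on few reads. They were 1.26 ± 0.492 for INPP5D (adjusted p = 0.0326), -1.49 ± 0.575 for KANK3 (adjusted p = 0.0435), and 5 counts in K1 against 0 in TPC1 for TREM2 (adjusted p = 0.0145). Each of these 3 calls was lost when single GSK2830371 libraries were left out, INPP5D without the TPC1 library numbered 1 (1.00) or the K1 library numbered 1 (0.72), KANK3 without the TPC1 library numbered 3 (-0.86) or either K1 library (-1.46 and -1.52), and TREM2 without the TPC1 library numbered 3 or the K1 library numbered 2.

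Ordered by mean level over the 8 groups, TREM2, UNC13A and KANK3 had the same order at the top, namely the TPC1 combination, TPC1 nutlin, the K1 combination and K1 nutlin. No neighbours among those 4 groups had overlapping ranges. INPP5D had the order TPC1 combination, K1 combination, K1 nutlin, TPC1 nutlin, without overlap. At the low end, the ranges of TPC1 DMSO, K1 DMSO and K1 GSK2830371 overlapped for INPP5D, that of TPC1 DMSO with those of K1 GSK2830371 and K1 DMSO for KANK3, and those of TPC1 DMSO, TPC1 GSK2830371 and K1 DMSO for TREM2. With 2 libraries a group, ranges apart are a weak sign of a difference.

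Levels of different genes are comparable only per length, taken here as CPM per kilobase of the canonical transcript (983 bases for TREM2, 9985 for UNC13A, 2787 for KANK3, 4814 for INPP5D). Under the combination in TPC1 the level per kilobase was 21.7 ± 4.74 for TREM2, 14.9 ± 2.23 for UNC13A, 9.13 ± 0.124 for KANK3 and 2.19 ± 0.308 for INPP5D (SD, n = 2). The receptor gene thus led per length although UNC13A led per read. In K1 the same levels were 1.56 ± 0.077, 0.862 ± 0.0282, 0.901 ± 0.0955 and 1.59 ± 0.0465, where the ranges of INPP5D and TREM2 overlapped.

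For the receptor TREM2, 21 genes of its pathway were listed, and 15 were tested in each line. In the combination against GSK2830371, 4 rose and 3 fell in TPC1 with a median log2 fold change of 0.30. In K1 2 rose and none fell in K1 with a median of -0.0028, where 19.5% and 6.3% of all genes were called higher, 19% and 6.75% lower, and the medians of all genes were -0.0032 and 0.0015. The 4 that rose in TPC1 were INPP5D, TREML1, HCST and CD33, and the 2 that rose in K1 were INPP5D and TREML1. INPP5D, itself a gene chosen for its rise under nutlin, is in the list because SHIP1 dampens TREM2 signalling. TREML1, a gene next to TREM2, passed the filter in both lines only through libraries with nutlin, and so did HCST in TPC1. Nothing is read from these counts of risers. TYROBP, the adaptor through which TREM2 signals, had 0 counts in all 16 libraries, which allows up to 0.00726 CPM in TPC1 and 0.0115 in K1. SYK, the kinase next in line, had 0 counts in TPC1 and 3 in K1. PLCG2, a phospholipase further down, was present at 29.6 to 49.97 CPM in TPC1 and 19.1 to 28.0 in K1. CD33, an inhibitory receptor of myeloid cells, rose in TPC1 (1.85 ± 0.182, adjusted p = 2.38e-05) and had -0.0028 ± 0.165 in K1. ADAM10, the protease that sheds TREM2 from the cell surface, fell in TPC1 (-0.81 ± 0.101, adjusted p = 0.000116), as did the adaptor LAT2 (-0.90 ± 0.0978, adjusted p = 4.68e-05).

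For UNC13A, 22 genes of the Munc13 family and vesicle priming were listed. In TPC1, 6 of 17 tested rose and 3 fell (median 0.47), beside 19.5% and 19% of all genes. SYT1, among these 6, would not have passed the filter there without the libraries with nutlin. In K1, 2 of 19 rose and none fell (median 0.09), beside 6.3% and 6.75%. The paralog UNC13B rose in TPC1 from 37.1 ± 3.84 CPM to 112 ± 10.9 (log2 1.69 ± 0.107, adjusted p = 1.29e-06) and had 0.57 ± 0.0594 in K1, under 1.5-fold. UNC13D, the paralog used by cytotoxic lymphocytes, rose in TPC1 (1.17 ± 0.212, adjusted p = 0.00118). UNC13C had 0 counts in TPC1 and 10 in K1. Of the SNARE genes of vesicle fusion, VAMP2 rose in TPC1 (0.85 ± 0.0806, adjusted p = 1.95e-05), and STX1A and SNAP25 fell there, by 1.46 ± 0.0866 (adjusted p = 8.45e-07) and 2.92 ± 0.374 (adjusted p = 0.000134) on the log2 scale.

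For KANK3, 16 genes of the KANK family and its cortical partners were listed. In TPC1, 1 of 16 rose and 4 fell (median -0.29), beside 19.5% and 19% of all genes. In K1, 1 of 15 rose and 2 fell (median -0.21), beside 6.3% and 6.75%. The paralog KANK2 fell in both lines, from 144 ± 8.55 to 14.4 ± 1.20 CPM in TPC1 (-3.21 ± 0.0974, adjusted p = 1.30e-08) and from 152 ± 22.3 to 56.3 ± 8.49 in K1 (-1.47 ± 0.1252, adjusted p = 8.19e-07). KANK1 had -0.50 ± 0.0935 and -0.37 ± 0.0897, both under 1.5-fold. Vinculin (VCL), the actin linker of adhesions, fell in TPC1 (-1.21 ± 0.0875, adjusted p = 3.10e-06), and the liprin PPFIBP1 rose there (1.13 ± 0.0831, adjusted p = 3.54e-06). PHLDB2, which anchors cortical microtubules, fell in TPC1 (-0.77 ± 0.145, adjusted p = 0.00148). KANK3 and KANK2 thus changed in opposite directions in both lines. KANK3 was chosen for its rise, and in K1 it passed the filter only through libraries with nutlin, so this is a description.

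For INPP5D, 24 genes of inositol lipid phosphatases and PI3K were listed, and all were tested. In TPC1, 5 rose and 2 fell (median 0.20), with 19.5% and 19% over all genes. In K1, 4 rose and 2 fell (median 0.09), with 6.3% and 6.75%. The close relative INPPL1, which encodes SHIP2, was not called, with 0.19 ± 0.075 (adjusted p = 0.0551) for TPC1 and -0.10 ± 0.05 (adjusted p = 0.148) for K1, at 147 ± 4.70 and 232 ± 0.896 CPM under GSK2830371. PIK3IP1, an inhibitor of PI3K, rose in both lines, with 2.46 ± 0.121 (adjusted p = 2.43e-07) and 1.40 ± 0.248 (adjusted p = 0.000515) for TPC1 and K1, and so did the regulatory subunit PIK3R3 (1.46 ± 0.109 and 0.75 ± 0.151). The phosphatase SYNJ2 fell in both (-1.94 ± 0.146 and -0.83 ± 0.079), as did the catalytic subunit PIK3CG (-1.63 ± 0.317 and -0.72 ± 0.101).

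In the same contrast, the list of p53 target genes held no gene called lower. In TPC1 all 21 rose (median 3.44) and in K1 19 rose (median 1.68), against 19.5% and 6.3% of all genes called higher. SPATA18, among the 21, passed the filter in TPC1 only through libraries with nutlin, so its rise there is not a test. By fold change, UNC13A and KANK3 stood above every gene of this list in TPC1, of which CDKN1A was the highest at 6.19 ± 0.144 (adjusted p = 5.02e-09), followed by BTG2 at 5.45 ± 0.109, MDM2 at 5.02 ± 0.106 and TP53I3 at 4.97 ± 0.123. In K1 the highest was MDM2 at 3.32 ± 0.0689, below the 3 genes other than UNC13A. The 4 genes were chosen for large rises under nutlin, with all libraries in view. Nothing is read from their place beside this list. In K1 the folds of TREM2 and KANK3 also rest on 5 and 4 reads under GSK2830371, and both passed the filter only through libraries with nutlin. The combination against nutlin called 5 of the 21 higher in TPC1 and 3 in K1, beside 6.46% and 1.16% of all genes. GSK2830371 alone called 1 and 4 of them higher, beside 1.4% and 2.23% of all genes called in either direction.

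**Figure D4:**
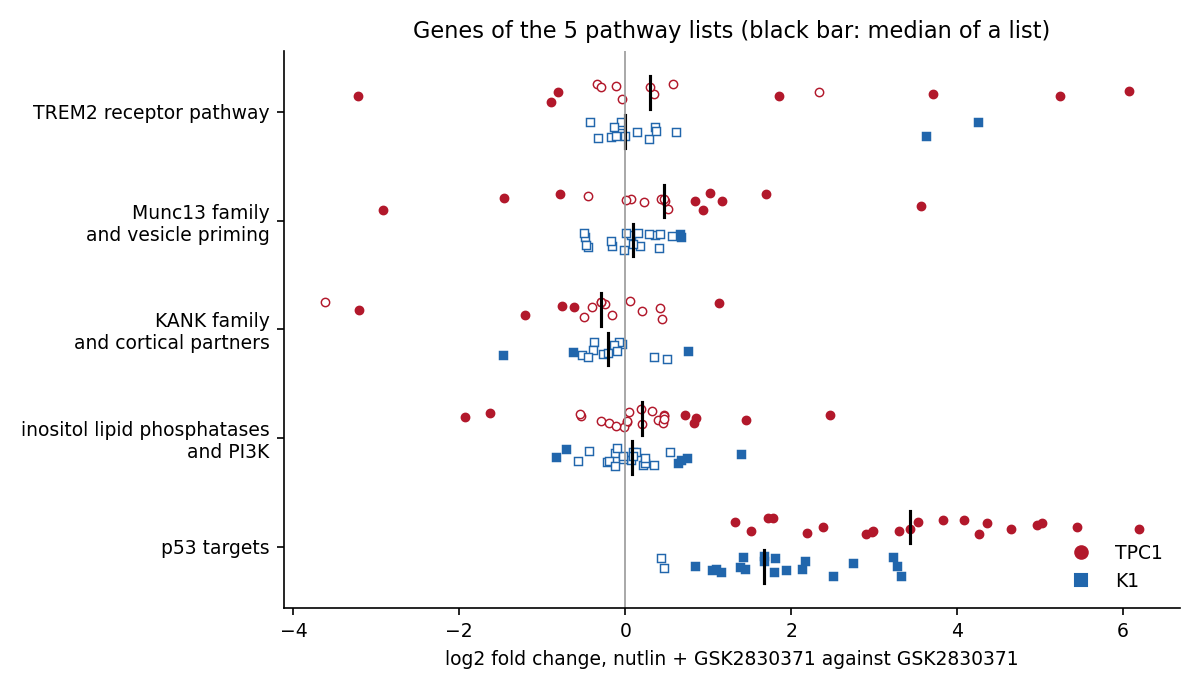
Log2 fold change of the combination against GSK2830371 for each tested gene of the 5 lists, in TPC1 (circles) and K1 (squares); filled symbols passed the rule, and black bars are list medians. Points of genes with 0 counts in a group depend on the fit's prior count. The p53 targets lie at or right of 0 in both lines, with medians of 3.44 and 1.68, while the other lists lie on both sides of 0.

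Markers of the cell types in which these genes are usually found were examined beside them. Of 16 blood cell markers, 4 to 8 were above 0.1 CPM by group, and AIF1, C1QA, C1QB and CD3E had 0 counts in all 16 libraries. PTPRC (CD45) had 0 counts in TPC1 and 7 in K1, and SPI1 7 and 9. The summed level of the list in TPC1 was 72.6 to 81.0 CPM under DMSO, 103 to 110 under nutlin, 73.8 to 83.4 under GSK2830371 and 93.8 to 95.1 under the combination, most of it CD68 (34.2 to 71.7) and LAPTM5 (24.8 to 49.2), and in K1 it was 64.2 to 73.7, 81.3 to 83.3, 65.7 to 71.4 and 67.8 to 75.6. Other markers of the list were present at low levels, CSF1R at 1.22 to 3.55 CPM and CD14 at 2.33 to 4.56 in K1. In the combination against GSK2830371, 2 of 7 tested blood cell markers rose and 2 fell in TPC1, and 1 of 9 fell in K1, beside 19.5% and 19% of all genes in TPC1 and 6.3% and 6.75% in K1. ITGAM, an integrin of myeloid cells and 1 of the 2 counted as rising, went from 0.0224 to 0.614 CPM in TPC1 (4.96 ± 0.661). It passed the filter there only through libraries with nutlin, so no p is given. LAPTM5 rose in TPC1 (0.80 ± 0.1401), while CD14 (-3.94 ± 0.693) and CSF1R (-1.97 ± 0.676) fell.

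Of 12 neuron markers, 5 to 9 were above 0.1 CPM by group, and ELAVL4 had 0 counts in all 16 libraries. The summed level in TPC1 was 177 to 189 CPM under DMSO, 222 to 227 under nutlin, 245 to 249 under GSK2830371 and 132 to 142 under the combination, and in K1 it was 215 to 219, 188 to 200, 255 to 275 and 202 to 219, mostly TUBB3 and ENO2. In TPC1, 2 of 7 tested rose and 3 fell, and in K1, 2 of 9 rose, against the same shares of all genes. SNAP25 (-2.92 ± 0.374), ENO2 (-1.14 ± 0.161) and TUBB3 (-0.60 ± 0.0817) were those that fell, and RBFOX3 and SYT1 (3.57 ± 0.748) those that rose in TPC1. RBFOX3 and SYT1 would not have passed the filter in TPC1 without the libraries with nutlin. The same held in K1 for NEFL, 1 of the 2 that rose there. RBFOX3, the neuronal splicing factor NeuN, had counts of 3 and 1 under DMSO, 12 and 11 under nutlin, 0 and 1 under GSK2830371, and 49 and 60 under the combination (ratio of the last pair 118, 95% counting interval 20.8 to 4714, resting on 1 read under GSK2830371). Its K1 level was higher at the outset, 10.0 to 25.3 CPM over the libraries. Of 10 endothelial markers, 3 rose of 5 tested in TPC1 and 1 fell of 6 in K1. Over all genes, 19.5% were called higher and 19% lower in TPC1, and 6.3% and 6.75% in K1. CDH5, among the 3 that rose, stood at 0.0130 CPM under GSK2830371 and 0.110 under the combination. It would not have passed the filter in TPC1 without the combination libraries. The summed levels of this list were 4.80 to 7.78 CPM in TPC1 and 71.7 to 84.6 in K1, where TIE1 made up 63.7 to 77.7. Of 12 thyroid markers, 2 rose and 1 fell in each line, of 7 tested in TPC1 and 8 in K1, beside the same shares of all genes. Their summed levels were 310 to 484 CPM in TPC1 and 785 to 883 in K1. SLC5A5, 1 of the 2 that rose in TPC1, passed the filter there only through libraries with nutlin. Thyroglobulin (TG) was among those that rose, in TPC1 from 0.310 ± 0.144 to 4.25 ± 1.04 CPM (adjusted p = 8.13e-06). HHEX was the 1 that fell in each line. Its TPC1 level went from 8.12 ± 0.783 to 3.14 ± 0.106 CPM (adjusted p = 0.000141 by edgeR). The K1 change was -1.11 ± 0.235 on the log2 scale (adjusted p = 0.00192). PAX8 and FOXE1 were called in neither line. The part of these marker genes in the values of the 4 genes was not tested.

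The neighbours of each gene were read from the annotation. TREML1, the next gene on the same strand 4159 bp from TREM2, encodes a receptor of platelets. Its counts in TPC1 were 0 and 7 under DMSO, 6 and 21 under nutlin, 1 and 0 under GSK2830371, and 14 and 28 under the combination, and in K1 0 and 0, 5 and 1, 1 and 0, and 9 and 7. In the combination against GSK2830371 its ratios were 45.6 (95% counting interval 7.75 to 1843) in TPC1 and 15.5 (2.40 to 649) in K1. It passed the filter on low counts only through libraries with nutlin, so no p is given. TREML2 on the other side had 4 and 3 counts over the 8 libraries of each line. Beside UNC13A, COLGALT1 had -0.57 ± 0.0855 in TPC1 and MAP1S -0.47 ± 0.0728, both under 1.5-fold. Beside KANK3, NDUFA7 had 0.42 ± 0.113 in TPC1 and ANGPTL4, a secreted regulator of lipoprotein lipase, fell there by 1.27 ± 0.138 (adjusted p = 4.66e-05). Beside INPP5D, NEU2 had 0 counts in TPC1 and ATG16L1 had -0.07 ± 0.0715. Within 100000 bp, 2 of 4 tested neighbours of TREM2 rose in TPC1 and 1 of 4 in K1, TREML1 among them in both lines, and none fell. For UNC13A 1 of 5 fell in TPC1, and no other was called. For KANK3 3 of 7 rose and 2 fell in TPC1, and none was called in K1. For INPP5D 1 fell in each line, of 2 and 3 tested. Over all genes, 19.5% were called higher and 19% lower in TPC1, and 6.3% and 6.75% in K1.

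The genes most alike in pattern were found by Pearson correlation of log2(CPM + 0.1) over the 16 libraries, among 13635 genes, as a description. The libraries share lines and treatments, so that any gene that answers nutlin in TPC1 more than in K1 will score high. Most like TREM2 were LYNX1 (r = 0.991), CLP1 (0.991) and NADSYN1 (0.990). LYNX1, a modulator of nicotinic receptors, stood at 1.58, 9.45, 1.45 and 9.97 CPM in TPC1 and 1.44, 2.80, 1.73 and 3.84 in K1 (means under DMSO, nutlin, GSK2830371 and the combination). Most like UNC13A were the smooth muscle actin gene ACTA2 (0.990), TP53INP2 (0.989) and palladin, PALLD (0.989). ACTA2 also started higher in K1, at 24.3 CPM under DMSO against 8.69 in TPC1, a smaller gap than 4.08 against 0.157 for UNC13A. Most like KANK3 were CMBL (0.995), the diacylglycerol kinase gene DGKA (0.993) and FDXR (0.992), a p53 target of the list. Most like INPP5D were C12orf5 (0.979), the older symbol of the p53 target TIGAR, PVRL4 (0.965), which encodes nectin 4, and FBXO22 (0.961). PVRL4 stood at 0.267 and 9.05 CPM under DMSO and nutlin in TPC1 and at 0.585 and 6.78 in K1, low and then at a like level in both lines. Among the 4 genes, TREM2 and KANK3 were the most alike (0.978) and UNC13A and INPP5D the least (0.783). With a pseudocount of 1 in place of 0.1, none of the 3 genes named for TREM2 and KANK3 were named again, 1 of those for UNC13A was, and all 3 for INPP5D were.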

How the data were processed

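RNA-seq reads (single-end, stranded, poly(A)) had been aligned by the authors to GRCh37 with TopHat2 2.0.13, reads of low mapping quality removed, and reads per gene symbol counted by strand with HTSeq 0.6.1. The deposited values are raw counts without normalization, for 25369 genes in 16 libraries. Versions are from the submitters' processing notes. In TPC1, 4 columns carry the number 3, which the labels do not use. These were assigned to their treatment by name, and libraries are cited by column number. K1 columns are numbered 1 and 2.

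The 4 genes and all lists were chosen with earlier results of these data known. Genes that exceeded 0.1 CPM in 2 or more of a line's libraries entered a fit with edgeR 4.0.16 in R 4.3.3 (TMM factors 0.961 to 1.04), the 4 treatments of a line together or all 8 groups for differences between lines. Quasi-likelihood p-values were adjusted by Benjamini-Hochberg over all genes tested, and the call needed both a value below 0.05 and a fold above 1.5. The SE is the log2 fold change divided by the square root of F. Alternatives included DESeq2 1.42.0, other scalings and filters, single libraries left out, and, added after the data were seen, removal of GC and length trends. The fit was tested on simulated data. The 95% interval of a fold change is the estimate and its SE under a normal approximation. Named genes were the 4, up to 4 called genes per list with at least 1 CPM in the higher group by size of change, 3 most alike in pattern, nearest neighbours, and CDKN1A and MDM2. Genes named beside these (TYROBP, SYK, PLCG2, HCST, UNC13C, KANK1, INPPL1, RPS28, VAMP2, TIGAR's older symbol and single markers) were chosen after their values were seen. TIGAR was matched by its RefSeq synonym. Counting intervals are exact and cover counting error only. Positions and exons come from GENCODE v44 lifted to GRCh37.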

Additional observations from a re-analysis of the deposited data

Results flagged for a closer look

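The nutlin effect with GSK2830371 present differed between the lines for UNC13A (-9.09 on the log2 scale, K1 minus TPC1) and for INPP5D (-1.83). This was by the test of the difference in the fit of all 16 libraries. The same test flagged TREM2 (adjusted p = 0.000599 by edgeR). TREM2 passed the filter on low counts only through libraries with nutlin and had 0 counts in the TPC1 GSK2830371 group, so its test has no size beside it and supports nothing. For UNC13A all 25 alternatives stayed past the threshold, between -9.25 and -8.93. For INPP5D 24 of 25 did, the exception being the fit without the K1 GSK2830371 library numbered 1. The INPP5D difference rests on few reads under GSK2830371 and was seen against that group only. With DMSO in its place the difference was -0.09 ± 0.414 (SE, a description). No outlying library was looked for within groups, since each holds 2.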

How the results depend on the processing

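For the combination against GSK2830371, UNC13A, KANK3 and INPP5D stayed called in TPC1 under 17 of 17 alternatives, and INPP5D did in K1. UNC13A in K1 ran from 0.464 to 0.720 (log2) as single libraries were left out. For the combination against nutlin, INPP5D in TPC1 (0.60, not called) was called without the filter (0.596), with DESeq2 (0.611), with GC and length trends removed (0.665) and with the compared groups alone (0.591), and leaving out libraries gave 0.474 to 0.734. UNC13A in TPC1 had a range of 0.577 to 0.945. In K1 its range was 0.422 to 0.748, and library size alone gave 0.615 and a call. INPP5D in K1 ran from -0.00649 (without the combination library numbered 2) to 0.0249, and the genes called from 227 to 447.

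For GSK2830371 against DMSO in TPC1, INPP5D became called without the filter (-1.398), with DESeq2 (-1.453) and with the replicate block (-1.355). With libraries left out, KANK3 ran from 0.784 to 2.105 and INPP5D from -2.18 to -0.860, without a call, and UNC13A from -0.00158 (without the DMSO library numbered 3) to 0.579. The genes called (214) were 377 without the filter, 480 with the replicate block, 106 with the compared groups alone and 22 to 253 with libraries left out. In K1, TREM2 became called with edgeR's own filter (4.465, a fitted value against 0 counts), UNC13A ran from 0.272 to 0.669 and INPP5D from -0.772 to 0.154 (without the GSK2830371 library numbered 2), and the genes called (354) were 130 with GC and length trends removed and 177 to 638 with libraries left out.

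Between the lines, the effect difference of KANK3 became called with DESeq2 (-1.925), and that of INPP5D ran from -2.64 to -1.28. The level under the combination of INPP5D became called without the filter (-0.595) and with the replicate block (-0.641), and ran from -0.714 to -0.445. The level under GSK2830371 lost its call for KANK3 without the filter (-1.494), with DESeq2 (-1.507), with the replicate block (-1.465) and with the compared groups alone (-1.466), and for INPP5D with the replicate block (1.151). With libraries left out it ran from -1.70 to -0.860 for KANK3, from 0.716 to 2.07 for INPP5D and from 4.49 to 5.12 for TREM2. The cause was not tested in any of these.

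The replicate numbers mark no shared source in the labels. Same-numbered libraries correlated in their deviations at 0.463 to 0.645 in TPC1 and at -0.325 to 0.340 in K1, and the replicate block changed no other call. DESeq2 gave no value for TREM2 in K1 (combination against nutlin, GSK2830371 against DMSO) or KANK3 (GSK2830371 against DMSO), and the compared groups alone gave none for those 2 genes in the latter or for the TREM2 level under GSK2830371. In all, 370 values kept their direction and their side of the threshold, 12 gained and 5 lost a call and 7 counts moved. With single libraries left out, 442 kept both, 6 gained and 11 lost a call, 3 changed sign and 10 counts moved. Few reads limit every value of TREM2, KANK3 and INPP5D without nutlin.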
